A study of Rattus norvegicus with 12 samples.

Results

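Genes of the major histocompatibility complex (MHC) and of antigen presentation were followed in wound tissue of diabetic rats. They were selected by name alone, as every gene whose symbol begins with RT1, the rat MHC, together with B2m, Tap1, Tap2, Tapbp, Psmb8, Psmb9, Psmb10, Nlrc5, Cd74 and Ciita. The rule found 53 of the 25620 genes in the count table, and all 53 were also among the 25524 genes of the FPKM table. There were 33 class I genes (3 RT1-A, 13 RT1-C/E and 17 of the RT1-M, N, O, S and T series), 10 class II genes (RT1-B, RT1-D and RT1-H symbols), 8 genes of the class I pathway and the 2 class II partners Cd74 and Ciita. By the deposited annotation, 48 of the 53 lay on chromosome 20, which holds the rat MHC.

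All rats were male Sprague-Dawley (SD) animals made diabetic with streptozotocin, a toxin of the insulin-secreting beta cells, and carried a circular full-thickness skin wound on the back. The wounds received normal saline (control), d-SMG (the dried mucus gel of the snail Achatina fulica), s-GAG (the sulfated glycosaminoglycan purified from d-SMG, labelled GAG) or Alg (a commercial alginate dressing, the study's positive control), and tissue was taken on day 3, 7 or 14. RNA was sequenced after depletion of ribosomal RNA, with 1 library for each treatment and day, 12 in all. The sources used here do not say whether a library came from 1 rat or from pooled rats, and the study says that this rat model may lack the nerve damage, the lasting high glucose and the mechanical load of human diabetic foot ulcers.

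Library totals ran from 13748887 to 38302461 reads on genes. Levels are given as CPM (reads per 1e6 scaled reads) after TMM scaling, and FPKM, which also divides by gene length, is used wherever genes are compared with each other. With 1 library for each treatment and day, a difference within a day could not be checked against replicates, so it is given as a log2 ratio to the control library of that day with a 95% interval that covers counting error only, and a ratio of at least 2-fold in either direction is counted. Some libraries stood apart over all genes. The d-SMG library of day 3 held 46.3 CPM of 9 keratinocyte markers in sum, against 4738 to 32266 CPM in the others, and 204930.0 CPM of 10 skeletal muscle markers. It was at least 2-fold below each other library for 1093 of 16110 genes, and the s-GAG library of day 14 for 1932. In whole tissue, fewer cells of a type and less RNA per cell cannot be told apart.

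MHC class I molecules are formed by a polymorphic heavy chain and beta2-microglobulin, and they carry peptides cut by the proteasome and moved into the endoplasmic reticulum by the TAP transporter to CD8 T cells. Class II molecules are dimers of an alpha and a beta chain that carry peptides from endosomes to CD4 T cells, and they are made mainly by macrophages, dendritic cells and B cells. In the rat, RT1-A genes encode the classical class I molecules, the RT1-C/E and RT1-M genes lie in regions of largely nonclassical genes whose number differs between strains, RT1-B and RT1-D correspond to HLA-DQ and HLA-DR, and interferon gamma raises most genes of both pathways.

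Of the 53 genes, 3 class I genes had at most 3 reads in every library and were counted as not detected (1 of the RT1-C/E genes and 2 of the M to T series). At least 100 reads in at least 1 library were reached by 40 genes: all 3 RT1-A genes, 11 of 13 RT1-C/E genes, 9 of 17 genes of the M to T series, 7 of 10 class II genes, all 8 class I pathway genes and both class II partners. Class I genes in sum held 544 CPM in the d-SMG library of day 3, the lowest, and 2589 CPM in the control library of day 3, the highest. Class II genes held 186 CPM in the Alg library of day 7, the lowest, and 886 CPM in the d-SMG library of day 7, the highest. The extremes of both classes therefore fell in different libraries.

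**Figure D1:**
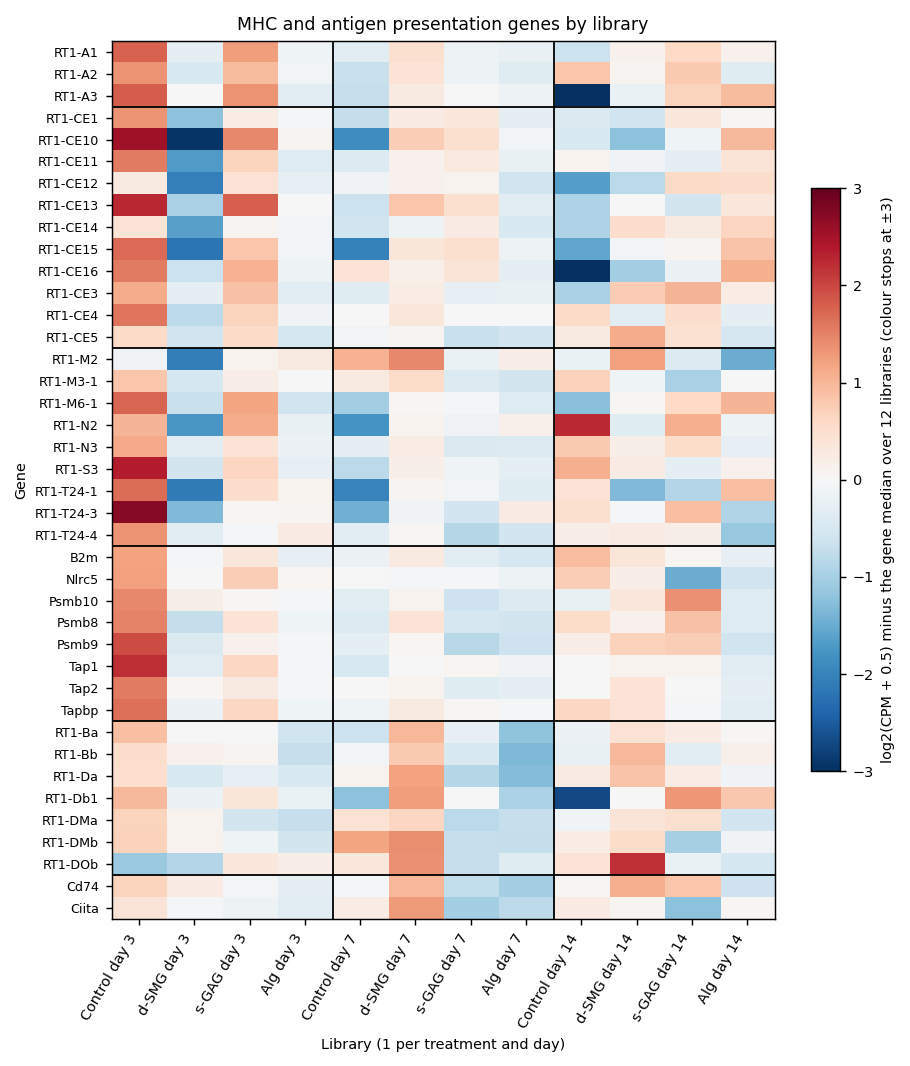
Levels of the 40 genes with at least 100 reads in a library, as log2(CPM + 0.5) minus each gene's median over the 12 libraries, with genes in rows grouped by role (RT1-A, RT1-C/E, RT1-M to T, class I pathway, class II, class II partners) and libraries in columns ordered by day. Class I and class I pathway rows are reddest in the control library of day 3, several class II rows in the d-SMG library of day 7, and RT1-A3 and RT1-CE16 are dark blue in the control library of day 14.

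Among class I heavy chains, the classical RT1-A genes and the RT1-C/E genes took most of the class I reads in every library. RT1-CE16 was the highest class I gene by FPKM in 11 of 12 libraries, with 19.7% to 49.7% of the summed class I FPKM in those 11, and RT1-A2 was the highest in the control library of day 14, with 22.4%. The 250 bases before the start of both genes are shown because these genes led the class I levels and differed most from each other in that library. The sequences are from RefSeq, build GRCr8, 5′ to 3′ on the strand of the gene, at chr20:4872621-4872870 (plus strand) and chr20:3265444-3265693 (minus strand). Capitals mark CCAAT, the Y box bound by NF-Y, and TGACG, the half-site of the cyclic AMP response element, on either strand (ATTGG and CGTCA on the other).
RT1-A2: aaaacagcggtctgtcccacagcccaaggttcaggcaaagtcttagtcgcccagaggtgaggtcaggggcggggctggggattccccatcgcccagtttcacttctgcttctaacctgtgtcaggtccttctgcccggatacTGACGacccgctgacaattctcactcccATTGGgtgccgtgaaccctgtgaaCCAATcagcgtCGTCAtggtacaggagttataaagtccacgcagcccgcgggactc
RT1-CE16: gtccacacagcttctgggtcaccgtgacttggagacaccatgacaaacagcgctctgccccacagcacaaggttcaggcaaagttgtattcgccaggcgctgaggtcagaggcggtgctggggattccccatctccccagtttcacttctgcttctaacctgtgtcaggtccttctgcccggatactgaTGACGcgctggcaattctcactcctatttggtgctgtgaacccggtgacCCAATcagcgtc

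The longest run of identical bases between these windows was 54 bases for RT1-A2 and RT1-CE16, 54 for RT1-A2 and RT1-A3 and 95 for RT1-A3 and RT1-CE16. How reads that match several class I genes were counted is not given in the sources used here, and identity between their transcripts was not computed, so levels of single class I genes are uncertain where copies are close. A promoter entry was found for 46 of the 53 genes. CCAAT was present in 18 of 29 class I windows and TGACG in 8 of 29, against 34% and 18.2% of all 33469 windows of this length. These matches are descriptions of letters and say nothing of binding.

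On day 3, class I levels were lower in the dressed libraries than in the control library. The control library had the highest of the 12 levels for 18 of 26 class I genes that passed the filter on low counts and for 8 of 8 class I pathway genes, while 7.11% of all genes peaked there. RT1-A2, a classical heavy chain, stood at 253 CPM in the control library, 72.2 in d-SMG, 190.0 in s-GAG and 93.7 in Alg. RT1-A3 stood at 250.4 CPM in the control library, 71.0 in d-SMG, 180.3 in s-GAG and 55.6 in Alg. RT1-CE16 stood at 545 CPM in the control library, 118 in d-SMG, 378 in s-GAG and 165 in Alg. For all 3 genes control was highest and s-GAG second, with d-SMG and Alg well below both.

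The median log2 ratio of class I genes to control on day 3 was -2.42 for d-SMG, -0.52 for s-GAG and -1.61 for Alg, beside medians over all genes of 0.00401, -0.04 and -0.00654. At least 2-fold lower were 24 of 25 class I genes with enough reads in d-SMG (14% of all genes), 6 of 26 in s-GAG (11.6% of all genes) and 20 of 25 in Alg (8.79% of all genes). At least 2-fold higher were 0, 2 and 0 class I genes, against 9.88%, 14.2% and 11.4% of all genes. The d-SMG and Alg shares were several times the background, and the s-GAG share was closer to it. All 3 comparisons use the same control library, so they are not independent of each other. These counts rest on fold size: with edgeR's exact test at a set biological coefficient of variation of 0.4, 8 genes of the whole set were lower in d-SMG on day 3, in place of 34, and 0 in s-GAG and Alg, in place of 13 and 33, against 2.64%, 0.231% and 0.382% of all genes.

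The depth of the drop differed between class I genes. In d-SMG it reached from a log2 ratio of -5.70 (95% counting interval -6.19 to -5.25) for RT1-CE10, which had 39 reads there and 3972 in control, to -1.18 (95% counting interval -1.29 to -1.07) for RT1-CE5 among the RT1-C/E genes. Within the M to T series, RT1-T24-1 stood at -4.26, RT1-T24-3 at -4.12 and RT1-S3 at -2.93. In d-SMG on day 3, 4 of 43 genes of the set that passed the filter were 2-fold or more below every other library. This is near the share of all genes that were that low there, 6.78%, genes at 0 reads included. The 4 were RT1-CE10, RT1-CE11, RT1-M2 (1 read) and RT1-M6-2. RT1-M6-2 was at 0 reads in that library and at 1 read in d-SMG on day 7, which gives no fold. Conversely, 9 genes stood at least 2-fold above each of the 11 other libraries in control on day 3, namely RT1-CE1, RT1-CE10, RT1-S3, RT1-T24-3, RT1-T24-4, Tap1, Tap2, Tapbp and Psmb9, against 0.732% of all genes.

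Marker sums of leukocytes and macrophages were also highest in control on day 3, but the dressed libraries stood in another order than for class I. Summed levels of 5 pan-leukocyte markers on day 3 were 380.1 CPM in control, 285 in d-SMG, 375 in s-GAG and 179 in Alg. Summed levels of 9 macrophage markers were 3977, 2373, 1854 and 1400.2 CPM in the same order. Those of 9 keratinocyte markers were 5785, 46.3, 13182 and 10320 CPM, with s-GAG and Alg above control. The leukocyte sum was nearly equal in control and s-GAG, while the macrophage sum was highest in control. Single markers differed. Of the leukocyte markers, Cd53 and Coro1a were highest in control on day 3, Ptprc and Itgb2 in s-GAG and Laptm5 in d-SMG. Of the macrophage markers, Cd163 and Mrc1 were highest in d-SMG and the others in control. Lyz2 alone held 2536 CPM of the macrophage sum in control. The part of any of these markers in the class I difference was not tested. Within the macrophage and leukocyte lists no marker was at 0 in any library.

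By day 7 the class I medians had turned. They were 0.91 for d-SMG, 0.69 for s-GAG and 0.21 for Alg, so all 3 medians lay above the control library. Class I genes in sum held 719.8 CPM in control, 1031.5 in d-SMG, 848.9 in s-GAG and 699.3 in Alg. By sum, Alg thus lay slightly below control. At least 2-fold higher were 11 of 24, 8 of 25 and 5 of 23 class I genes, against 7.5%, 12.9% and 12.3% of all genes. At least 2-fold lower were 0, 1 and 0, against 5.74%, 12.5% and 12.1% of all genes. RT1-CE10 had 7.45 CPM in the control library, 47.6 in d-SMG, 39.6 in s-GAG and 26.7 in Alg, and RT1-CE15 had 9.15 CPM in the control library, 50.1 in d-SMG, 53.9 in s-GAG and 34.6 in Alg. Both were lowest in control by a wide margin, with log2 ratios for d-SMG of 2.68 (95% counting interval 2.39 to 2.97) and 2.45 (95% counting interval 2.19 to 2.72). RT1-A2 showed a smaller gap, with 62.2 CPM in the control library, 131 in d-SMG, 89.1 in s-GAG and 76.2 in Alg. RT1-CE16 was highest in control, with 241.8 CPM there, 204.0 in d-SMG, 240.1 in s-GAG and 151.9 in Alg. RT1-CE5 had 102.1, 116.1, 68.4 and 73.2 CPM in the same order.

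On day 14 the class I genes did not move together. Their median was 0.78 for d-SMG, 0.41 for s-GAG and 0.49 for Alg, and the values ran from -2.75 to 7.38. At least 2-fold higher than control were 10 of 25, 12 of 27 and 10 of 24 class I genes (12.7%, 26.6% and 9.51% of all genes), and at least 2-fold lower were 2, 4 and 6 (16.1%, 31.2% and 11.8% of all genes).

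The highest ratios belonged to genes that were nearly missing from the control library of day 14. RT1-CE16 had 48 reads there (2.33 CPM) against 90.8 CPM in d-SMG, 163 in s-GAG and 387 in Alg on that day, and the lowest of the 11 other libraries was 39.0-fold higher. RT1-A3 had 62 reads (3.01 CPM) against 61.0, 113 and 137 CPM, and the lowest of the others was 14.4-fold higher. RT1-Db1 of class II was likewise at least 2-fold below all other libraries in control on day 14, with the lowest of the others 2.84-fold higher, as were 0.627% of all genes. RT1-CE2 met the same rule on 2 reads there against 3 in control on day 7, too few for a fold to be read.

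Other class I genes in the same library were not low. RT1-A2 had 175 CPM in the control library, 104 in d-SMG, 171 in s-GAG and 76.3 in Alg on day 14, and B2m had 1142 CPM in the control library, 776 in d-SMG, 628 in s-GAG and 508 in Alg. RT1-N2, a gene of the N series, stood at 24.4 CPM in control on day 14, above 3.63, 10.8 and 4.22 in the dressed libraries and the highest of all 12. The control library of day 14 was thus lowest of its day for some class I loci and highest for others. SD rats are an outbred stock and RT1 genes are highly polymorphic as background, and the alleles of these rats were not tested.

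Ratios between genes within a library showed the same split without any scaling between libraries. The FPKM ratio of RT1-A3 to RT1-A2 was 0.0242 in control on day 14 and 0.832 to 2.54 in the 11 others. That of RT1-CE16 to RT1-CE5 was 0.136 there and 2.96 to 38.8 elsewhere. For RT1-A1 to RT1-A2 the values were 0.132 and 0.324 to 0.521. In each of these pairs the control library of day 14 gave the lowest value.

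**Figure D2:**
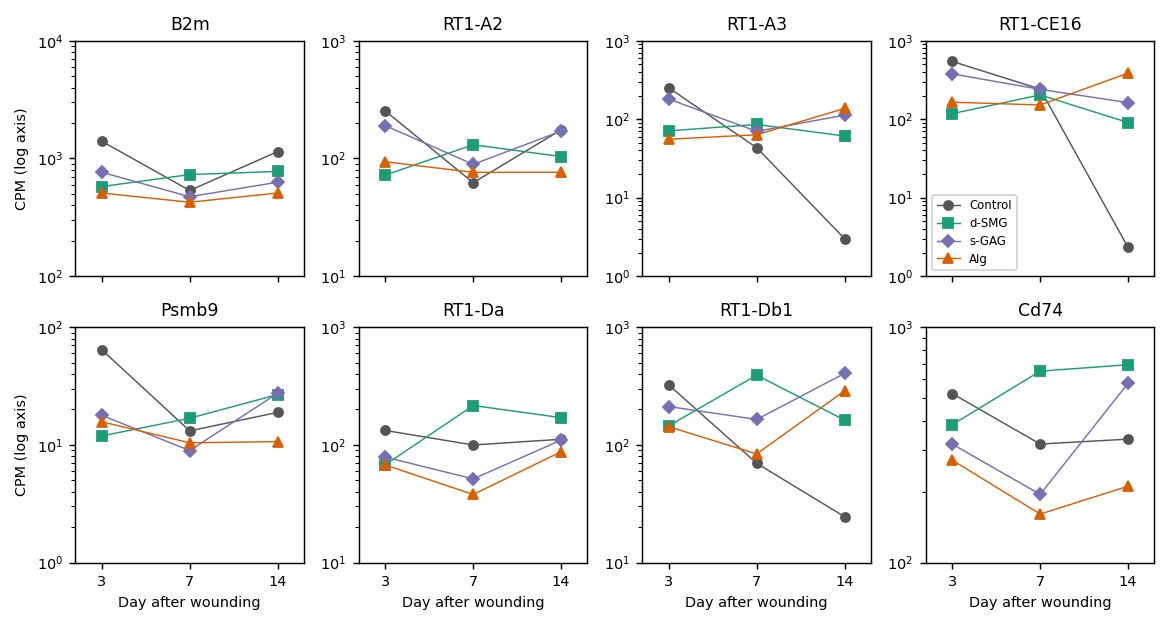
TMM-scaled CPM on a log axis against the day after wounding (3, 7 and 14) for 8 genes, with 1 point for each library and lines joining the libraries of a treatment. The control point of day 14 falls to 2.33 CPM for RT1-CE16 and 3.01 CPM for RT1-A3 while RT1-A2 and B2m stay high, and Cd74 and RT1-Da are highest in d-SMG on days 7 and 14.

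The other class I genes with enough reads are given by their range over the 12 libraries. RT1-CE5 ranged from 68.4 to 236 CPM (median 109), and RT1-CE4 ranged from 19.9 to 107 CPM (median 34.6). RT1-A1 ranged from 18.3 to 99.4 CPM (median 28.8), RT1-CE15 ranged from 8.08 to 127 CPM (median 38.7) and RT1-CE12 ranged from 4.99 to 32.9 CPM (median 22.2). RT1-CE13 ranged from 3.91 to 40.6 CPM (median 8.13), RT1-CE11 ranged from 2.75 to 30.5 CPM (median 10.1), RT1-CE1 ranged from 4.33 to 28.1 CPM (median 10.8), RT1-CE3 ranged from 4.99 to 22.5 CPM (median 10.3) and RT1-CE14 ranged from 2.41 to 13.5 CPM (median 8.50). All of these are RT1-A or RT1-C/E genes, and each was detected in every library. In the M to T series, RT1-T24-4 ranged from 26.0 to 148 CPM (median 57.9), RT1-T24-3 ranged from 9.96 to 189 CPM (median 28.1), RT1-S3 ranged from 24.0 to 219 CPM (median 42.8) and RT1-M3-1 ranged from 16.7 to 59.8 CPM (median 33.3). Further down, RT1-N3 ranged from 12.7 to 38.7 CPM (median 17.4), RT1-T24-1 ranged from 1.17 to 22.4 CPM (median 6.67), RT1-M6-1 ranged from 2.57 to 23.8 CPM (median 6.80), RT1-N2 ranged from 1.02 to 24.4 CPM (median 4.797) and RT1-M2 ranged from 0.0832 to 6.22 CPM (median 1.97). RT1-M3-1 corresponds to the nonclassical molecule that presents N-formylated peptides.

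The light chain and the peptide supply were also lower in the dressed libraries on day 3. In s-GAG their median fell further below control than that of the class I heavy chains. B2m, which encodes beta2-microglobulin, had 1398 CPM in the control library, 577 in d-SMG, 762 in s-GAG and 508 in Alg. Psmb8, Psmb9 and Psmb10 encode the catalytic subunits of the immunoproteasome, and Psmb9 had 64.1 CPM in the control library, 11.9 in d-SMG, 17.8 in s-GAG and 15.7 in Alg. Tap1, a subunit of the peptide transporter, had 176 CPM in the control library, 29.6 in d-SMG, 58.0 in s-GAG and 37.0 in Alg. Control was the highest library for each of these, and the 3 dressed libraries lay closer to each other than to control. The median log2 ratio of the 8 class I pathway genes was -1.69 in d-SMG, -1.19 in s-GAG and -1.63 in Alg, with 8, 6 and 8 of 8 at least 2-fold lower, against 14%, 11.6% and 8.79% of all genes. In s-GAG the 2 others were B2m at -0.88 (95% counting interval -0.90 to -0.85) and Nlrc5 at -0.50 (95% counting interval -0.69 to -0.31). On day 7 and day 14 the pathway medians lay between -0.88 (Alg on day 14) and 0.42 (d-SMG on day 7).

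The promoters of B2m, Tap1 and Psmb10 are shown because these genes were all lower in the dressed libraries on day 3 and hold the core of the interferon-stimulated response element. They are from RefSeq, build GRCr8, as the 250 bases before the start of B2m at chr3:129549080-129549329 (plus strand), Tap1 at chr20:4668544-4668793 (minus strand) and Psmb10 at chr19:50743293-50743542 (minus strand). Capitals mark GAAA, any 2 bases and GAAA on either strand (the complement reads TTTC, 2 bases and TTTC), and in B2m also CCAAT and TGACG.
B2m: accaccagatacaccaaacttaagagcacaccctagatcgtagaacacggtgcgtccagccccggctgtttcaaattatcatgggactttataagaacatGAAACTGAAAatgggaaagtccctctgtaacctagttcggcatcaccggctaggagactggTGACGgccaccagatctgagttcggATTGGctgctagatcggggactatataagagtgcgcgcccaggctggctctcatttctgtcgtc
Tap1: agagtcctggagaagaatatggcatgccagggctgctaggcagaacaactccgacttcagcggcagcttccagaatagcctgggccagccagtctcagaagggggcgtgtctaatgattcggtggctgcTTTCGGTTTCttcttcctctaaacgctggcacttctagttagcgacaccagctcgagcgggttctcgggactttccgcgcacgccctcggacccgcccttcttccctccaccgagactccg
Psmb10: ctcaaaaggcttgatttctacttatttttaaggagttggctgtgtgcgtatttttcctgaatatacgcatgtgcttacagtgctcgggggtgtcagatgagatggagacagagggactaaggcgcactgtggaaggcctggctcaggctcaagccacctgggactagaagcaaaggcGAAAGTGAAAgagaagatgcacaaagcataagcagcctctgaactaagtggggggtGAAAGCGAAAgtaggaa

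That core was found in the windows of 5 of 7 class I pathway genes with an entry (B2m, Tap1, Tap2, Tapbp and Psmb10), in 3 of 29 class I windows (RT1-N3, RT1-S2 and RT1-S3) and in 0 of 9 class II windows, against 3.41% of all windows. Psmb8 and Psmb9 held no match in this window. Both were also lower in the dressed libraries on day 3, with log2 ratios of -2.24 and -2.43 in d-SMG. The interferon gamma activated site TTCNNNGAA was found in 1 of 7, 1 of 29 and 0 of 9, against 7.67% of all.

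The immunoproteasome subunits replace Psmb5, Psmb6 and Psmb7 of the standard proteasome, so their ratio compares both forms within a library. The FPKM ratio of Psmb8 to Psmb5 on day 3 was 1.19 in control, 0.299 in d-SMG, 1.15 in s-GAG and 0.616 in Alg. The ratio of Psmb9 to Psmb6 was 1.44, 0.294, 0.682 and 0.544 in the same order. For both pairs the highest of 12 values was in control and the lowest in d-SMG on day 3. Psmb10 to Psmb7 was lower throughout, at 0.0805 to 0.185. The standard subunits themselves were highest in control on day 3 for Psmb7 (239.8 CPM) and in s-GAG on day 14 for Psmb5 and Psmb6 (138 and 70.2 CPM).

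Nlrc5, the transactivator of class I genes, had 28.6 CPM in the control library, 11.99 in d-SMG, 20.2 in s-GAG and 12.4 in Alg on day 3. On day 7 it lay between 10.6 and 11.9 CPM in all 4 libraries, and on day 14 it had 20.1 CPM in the control library, 13.8 in d-SMG, 3.90 in s-GAG and 7.88 in Alg. The control library was highest on days 3 and 14, and the s-GAG library of day 14 was at least 2-fold below every other library. Tap2 ranged from 36.0 to 137 CPM (median 46.2), Tapbp ranged from 20.5 to 81.2 CPM (median 25.5), Psmb8 ranged from 26.2 to 124 CPM (median 43.7) and Psmb10 ranged from 9.88 to 43.2 CPM (median 15.5). Tap2 is the other subunit of the transporter, and Tapbp encodes tapasin, which loads class I molecules.

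**Figure D3:**
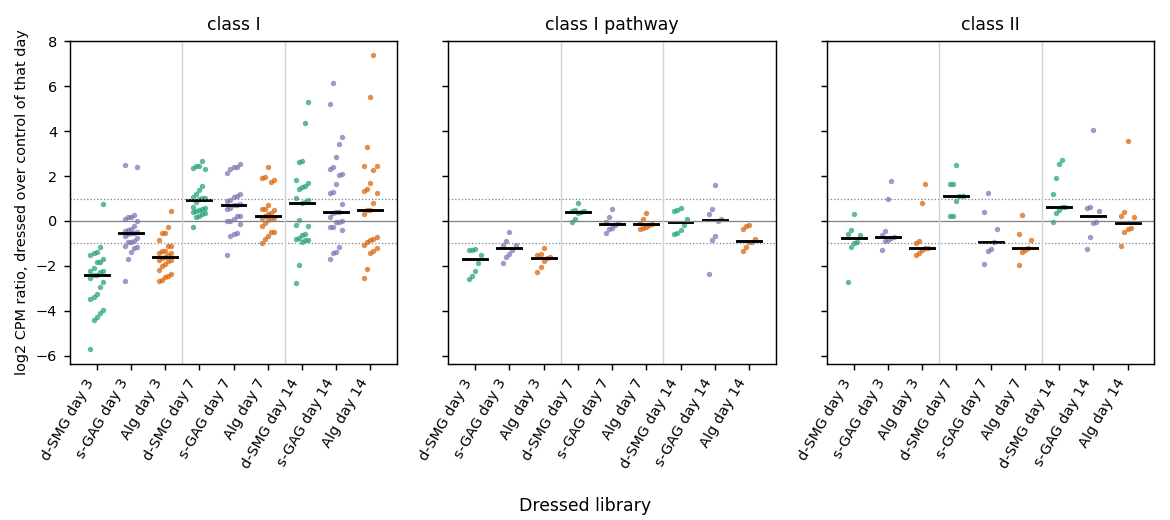
Log2 ratio of CPM in each dressed library to the control library of the same day, for class I genes, class I pathway genes and class II genes with at least 10 reads in both libraries together. Each point is a gene, black bars are medians and dotted lines mark 2-fold, and the class I and pathway points lie mostly below 0 on day 3 while the class II points are above 0 in d-SMG on day 7 and mostly below 0 in s-GAG and Alg.

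On day 3 the class II median lay below control in all 3 dressed libraries, as the class I median did. Class II genes parted from class I genes on day 7, when their median was above control in d-SMG only. On day 14 class II genes in sum held 268.9 CPM in control, 593.8 in d-SMG, 644.4 in s-GAG and 525.1 in Alg. RT1-Da and RT1-Db1, the alpha and beta chain of the HLA-DR counterpart, led the class II levels by FPKM, RT1-Db1 in 9 libraries and RT1-Da in 3. The promoters of these 4 chains are shown because class II chains are known for a shared X box and Y box. They are from RefSeq, build GRCr8, at chr20:4515165-4515414 (plus strand), chr20:4560163-4560412 (minus strand), chr20:4576807-4577056 (plus strand) and chr20:4604119-4604368 (minus strand). Capitals mark CCAAT or its complement ATTGG, and GCAAC or its complement GTTGC, a core of the X box that was added after the sequences were seen.
RT1-Da: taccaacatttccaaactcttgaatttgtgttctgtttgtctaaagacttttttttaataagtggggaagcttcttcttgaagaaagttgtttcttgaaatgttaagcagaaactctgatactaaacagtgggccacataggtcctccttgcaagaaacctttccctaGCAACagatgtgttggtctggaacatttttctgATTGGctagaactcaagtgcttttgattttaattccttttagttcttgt
RT1-Db1: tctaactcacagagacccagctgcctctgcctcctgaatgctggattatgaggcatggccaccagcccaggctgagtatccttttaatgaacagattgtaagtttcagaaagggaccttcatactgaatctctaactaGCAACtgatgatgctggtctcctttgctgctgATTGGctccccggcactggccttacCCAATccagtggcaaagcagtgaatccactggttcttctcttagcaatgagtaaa
RT1-Ba: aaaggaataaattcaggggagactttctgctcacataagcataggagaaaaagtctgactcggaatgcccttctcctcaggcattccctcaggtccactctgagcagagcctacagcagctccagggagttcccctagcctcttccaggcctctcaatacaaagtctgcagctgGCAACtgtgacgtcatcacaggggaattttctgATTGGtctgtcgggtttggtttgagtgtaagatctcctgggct
RT1-Bb: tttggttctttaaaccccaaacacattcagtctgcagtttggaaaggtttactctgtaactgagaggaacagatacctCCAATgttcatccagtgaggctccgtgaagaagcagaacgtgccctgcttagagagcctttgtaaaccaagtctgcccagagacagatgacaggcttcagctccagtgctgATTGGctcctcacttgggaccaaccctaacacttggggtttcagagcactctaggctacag

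CCAAT was found in 9 of 9 class II windows, against 34% of all windows. GCAAC, chosen after the sequences were seen, was found in 7 of 9, against 29.5%. The GCAAC count is therefore a description and cannot serve as support. RT1-Bb and RT1-DMa held no GCAAC. In RT1-Da, RT1-Db1 and RT1-Ba the GCAAC match began at position -82, -112 and -76 from the gene start, upstream of the nearest CCAAT match on the other strand at -49, -80 and -43, so the distance between both was nearly equal in the 3 promoters.

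On day 3 RT1-Da had 132 CPM in the control library, 67.8 in d-SMG, 78.6 in s-GAG and 67.5 in Alg. Day 7 values were 99.7 CPM in the control library, 216 in d-SMG, 51.4 in s-GAG and 37.9 in Alg. Day 14 values were 112 CPM in the control library, 170.3 in d-SMG, 109.7 in s-GAG and 87.4 in Alg. The d-SMG library was at or near the bottom on day 3 and at the top on days 7 and 14. Its log2 ratio to control was -0.97 (95% counting interval -1.08 to -0.86), 1.11 (95% counting interval 1.03 to 1.20) and 0.61 (95% counting interval 0.53 to 0.69) on the 3 days. RT1-Bb gave 114, 86.4, 84.2 and 49.0 CPM on day 3 (control, d-SMG, s-GAG and Alg). Its day 7 values were 74.2, 136, 57.3 and 30.8 CPM, and its day 14 values 67.3, 157, 62.8 and 87.6. RT1-Ba gave 70.1, 36.6, 37.6 and 24.4 CPM on day 3 in the same order, with 23.6, 74.4, 31.4 and 15.7 for day 7 and 32.7, 50.6, 44.0 and 38.2 for day 14. Both chains of RT1-B were highest in d-SMG among the libraries of days 7 and 14, as RT1-Da was.

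RT1-Db1 did not keep step with its partner chain. It had 323, 145, 212 and 142 CPM on day 3 (control, d-SMG, s-GAG and Alg). Day 7 values were 69.6, 391, 164 and 83.7 CPM, followed by 24.5, 162, 404 and 287 for day 14. Control had the lowest value of its day on days 7 and 14, and s-GAG on day 14 the highest of all 12. The FPKM ratio of RT1-Db1 to RT1-Da ran from 0.210 in control on day 14 to 3.52 in s-GAG on day 14, with 0.666 in control on day 7, a spread of 16.8-fold. For RT1-Bb to RT1-Ba the spread was 2.20-fold, from 1.05 to 2.32.

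**Figure D4:**
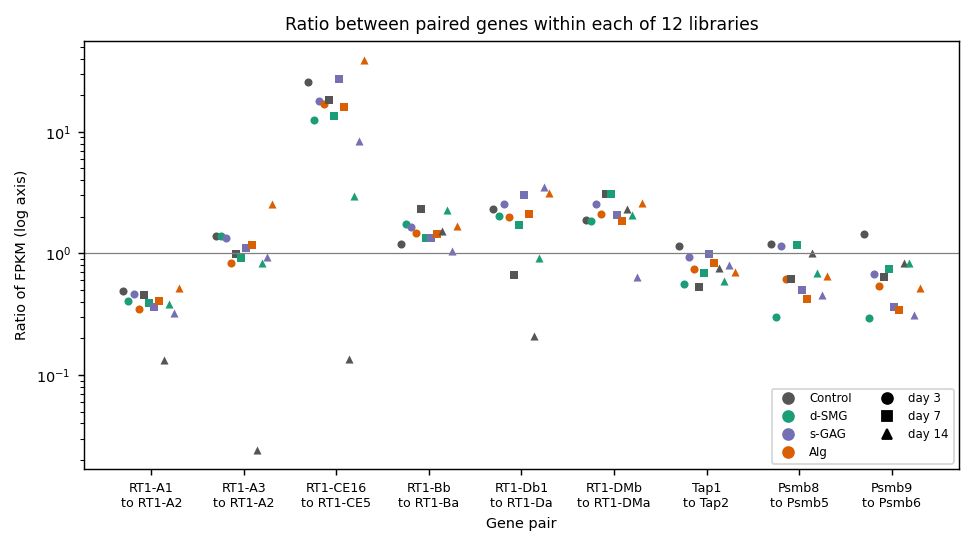
Ratio of FPKM between 2 genes within each library, on a log axis, for 9 gene pairs, with treatment as colour and day as marker. The control library of day 14 is the lowest point for RT1-A1, RT1-A3 and RT1-CE16 over the gene each is set against and for RT1-Db1 over RT1-Da, while RT1-Bb to RT1-Ba stays between 1.05 and 2.32.

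The class II median log2 ratio was -0.77 for d-SMG, -0.70 for s-GAG and -1.18 for Alg on day 3. Day 7 gave 1.12, -0.96 and -1.20. Day 14 gave 0.63, 0.20 and -0.07, where the sign in s-GAG turned with library size scaling (-0.19) and that in Alg without a filter on low counts (0.20). On day 3, 2 of 8, 1 of 9 and 5 of 9 class II genes were at least 2-fold lower, and 0, 2 and 1 higher, against 14%, 11.6% and 8.79% of all genes lower and 9.88%, 14.2% and 11.4% higher. The s-GAG counts of day 3 lay near that background. On day 7, 5 of 8 were at least 2-fold higher in d-SMG (7.5% of all genes), while 3 of 7 and 4 of 7 were at least 2-fold lower in s-GAG and Alg (12.5% and 12.1% of all genes). On day 14, 4 of 9 were at least 2-fold higher in d-SMG (12.7% of all genes) and 0 lower. In s-GAG, 1 of 8 was higher and 1 lower, below the 26.6% and 31.2% of all genes, and in Alg also 1 each way (9.51% and 11.8%). The d-SMG library of day 7 had the highest of the 12 levels for 3 of 7 class II genes that passed the filter (RT1-Ba, RT1-Da and RT1-DMb) and for Ciita, against 5.68% of all genes.

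The peptide editors of class II were lower in level. RT1-DMb, a chain of the DM molecule that exchanges the peptide of class II, had 28.8, 19.0, 16.1 and 11.9 CPM on day 3 (control, d-SMG, s-GAG and Alg), 40.4, 47.0, 10.8 and 10.5 for day 7 and 20.6, 25.9, 8.57 and 16.3 for day 14. RT1-DMa, its partner, had 12.9, 8.57, 5.33 and 4.74 CPM on day 3, then 10.97, 12.7, 4.35 and 4.77 for day 7 and 7.42, 10.6, 11.4 and 5.23 for day 14. On day 7 both were about as high in control as in d-SMG and lower in s-GAG and Alg. RT1-DOb, a chain of the DM inhibitor DO, stood at 1.42 CPM in d-SMG on day 3, 8.70 on day 7 and 15.8 on day 14, and lay between 1.15 and 4.22 CPM in the 9 other libraries. RT1-DOa, RT1-Db2 and RT1-Ha stayed at or below 0.584 CPM.

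Cd74, the invariant chain that escorts class II to endosomes, had 522 CPM in the control library, 385 in d-SMG, 318 in s-GAG and 272 in Alg on day 3. Its day 7 values were 319 CPM in the control library, 650.3 in d-SMG, 195 in s-GAG and 161 in Alg. For day 14 they were 334 CPM in the control library, 692 in d-SMG, 577 in s-GAG and 211 in Alg. The log2 ratio of d-SMG to control was -0.44 (95% counting interval -0.49 to -0.39), 1.03 (95% counting interval 0.98 to 1.08) and 1.05 (95% counting interval 1.01 to 1.09). The Alg library was the lowest of each day. Ciita, the master transactivator of class II, had 13.6, 9.74, 9.13 and 8.10 CPM on day 3, then 12.1, 25.5, 4.76 and 5.77 for day 7 and 12.2, 10.9, 4.09 and 10.7 for day 14. Its highest value was in d-SMG on day 7 and its lowest in s-GAG on day 14, and on day 14 d-SMG was not above control, with a log2 ratio of -0.16 (95% counting interval -0.45 to 0.12).

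Leukocyte markers were also highest in the d-SMG library of day 7. The summed leukocyte, macrophage and dendritic or Langerhans cell markers there were 475, 4529.9 and 80.6 CPM, against 423, 3059.5 and 72.3 in control, 130.2, 1311 and 29.7 in s-GAG and 143, 919 and 37.3 in Alg on the same day. B cell markers were near 0, with 0.583 to 3.49 CPM in sum over the 12 libraries. The d-SMG library of day 7 was thus highest for class II genes and for all 3 marker sums, and the part of these markers was not tested. On day 14 the macrophage sum was 1622 CPM in d-SMG and 2849 in control, the reverse order of Cd74. For these 2 libraries the leukocyte sum was 343 and 305 CPM and the dendritic or Langerhans cell sum 68.2 and 45.9, in the order of Cd74. In s-GAG the leukocyte, macrophage and dendritic or Langerhans cell sums were 126, 591 and 26.9 CPM. Each was the lowest of the 12 libraries, while Cd74 had 577 CPM there. In Alg these sums were 278, 3339 and 45.8 CPM, and Cd74 had 211 CPM. Skeletal muscle markers ran against class II in d-SMG: their sum was 4635 CPM in d-SMG, 52779.5 in control, 39026 in s-GAG and 130668 in Alg on day 7. The day 14 sums were 6135, 50401, 94654 and 10414 CPM, and their part in the class II levels was not tested.

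The interferon arm of the pathway was read through its own genes. Ifng was at or below 0.213 CPM in every library and at 0 reads in 6 of the 12. Irf1, a transcription factor induced by interferons, had 54.7 CPM in the control library, 16.1 in d-SMG, 20.01 in s-GAG and 17.7 in Alg on day 3. It was highest in control, with log2 ratios of -1.77, -1.45 and -1.63 in d-SMG, s-GAG and Alg. Of 30 other antigen presentation genes with enough reads on day 3, 9, 5 and 7 were at least 2-fold lower in d-SMG, s-GAG and Alg (14%, 11.6% and 8.79% of all genes), with medians of -0.20, -0.46 and -0.41. Day 7 gave 0, 8 and 7 of 30 lower (5.74%, 12.5% and 12.1% of all genes), and day 14 gave 1, 14 and 0 (16.1%, 31.2% and 11.8% of all genes).

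Across the 3 days the dressings were compared in 1 model with day and treatment as terms, so that the days served as replicates. With edgeR's quasi-likelihood test and Benjamini-Hochberg adjustment, 0 of 43 genes of the set and 0 of 16110 genes in all (0%) were called at an adjusted p of 0.05 in each of the 7 comparisons (d-SMG, s-GAG and Alg against control, d-SMG against s-GAG, and the days against each other). At an unadjusted p under 0.05 there were 0, 4, 5 and 2 genes of the set for the treatment comparisons in that order, and 0, 0 and 2 for day 7 against 3, day 14 against 3 and day 14 against 7. Over all genes the same counts were 218, 1492, 502, 716, 292, 798 and 502. DESeq2 called 0 genes of the set in each of the 7 comparisons and 9, 280, 89, 24, 8, 35 and 15 genes in all.

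The sizes behind these counts were as follows. RT1-DMb averaged 11.8 CPM over the s-GAG libraries and 29.9 over control, a log2 difference of -1.27 ± 0.42 (SE) with an adjusted p of 0.467, and was lower on 3 of 3 days. Ciita differed by -1.06 ± 0.47 (SE) between s-GAG and control (adjusted p = 0.539, lower on 3 of 3 days) and by 1.30 ± 0.48 (SE) between d-SMG and s-GAG (adjusted p = 0.926, higher on 3 of 3 days). B2m differed by -1.03 ± 0.38 (SE) between Alg and control (adjusted p = 1, lower on 3 of 3 days). None of these passed the adjusted threshold. The median over class II genes was 0.42 for d-SMG, -0.30 for s-GAG and -0.70 for Alg against control, beside -0.03, 0.0021 and -0.03 over all genes. For class I genes it was -0.44, 0.0036 and -0.38. The day-wise class I medians had opposite signs on day 3 and on the later days.

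Regulators and targets were also related across the 12 libraries on log2(CPM + 0.5), in 4 planned pairs with two-sided permutation tests. Cd74 against Ciita gave Pearson r = 0.450 (permutation p = 0.146, adjusted 0.195) and Spearman rho = 0.497 (permutation p = 0.107). Tap1 against Nlrc5 gave r = 0.587 (permutation p = 0.0810, adjusted 0.195) and rho = 0.413 (permutation p = 0.186). Against Ptprc, the leukocyte antigen CD45, Cd74 gave r = 0.225 (permutation p = 0.490) and rho = 0.350 (permutation p = 0.269), and B2m gave r = 0.496 (permutation p = 0.1001) and rho = 0.580 (permutation p = 0.0531). No pair passed after adjustment over the 4.

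By Pearson r on TMM-scaled CPM, the s-GAG library of day 14 decided whether these relations passed. Without it, r was 0.770 for Cd74 and Ciita, 0.817 for Tap1 and Nlrc5, 0.694 for Cd74 and Ptprc and 0.662 for B2m and Ptprc, with adjusted permutation p of 0.00950, 0.00950, 0.0272 and 0.0287. Without the 2 libraries farthest from the median of the regulator or of Ptprc, r was 0.702, 0.677, 0.631 and 0.624 (permutation p = 0.0244, 0.0340, 0.0504 and 0.0516). Without the control library of day 3, the value for Tap1 and Nlrc5 was 0.277. A day holds 4 libraries, too few for a relation within it. With all 12 libraries kept, the scaling and the measure mattered too. By Spearman rho with library size scaling, adjusted permutation p was 0.0358 for Cd74 and Ciita and for Cd74 and Ptprc. It was 0.00320 for Tap1 and Nlrc5 and 0.0285 for B2m and Ptprc. With FPKM the values were 0.0457, 0.0457, 0.00668 and 0.0445 in the same order. By Pearson r no pair passed in either setting.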

How the data were processed

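Ribosomal RNA-depleted, stranded RNA-seq libraries of wound tissue were made and sequenced by the authors, whose processing notes name bcl2fastq, FastQC, TopHat2 and edgeR. The genome build, the annotation, the counter and the handling of reads with several matches are not given in the sources used here. The authors deposited raw read counts per gene and FPKM per gene, and 1 column in each table that matched no sample was left out. Groups came from the treatment labels, with 1 library per treatment and day.

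Counts were scaled by TMM (edgeR 4.0.16 in R 4.3.3). For day-wise log2 ratios, a gene needed 10 or more reads summed over both libraries. They set 0 reads to a floor of 3, were called at 2-fold and carry Clopper-Pearson 95% intervals of counting error only. Over the 12 libraries, edgeR's quasi-likelihood test was fitted with day and treatment as terms on 16110 genes kept by filterByExpr (6 residual degrees of freedom), with DESeq2 1.42.0 as an alternative. Libraries of different days were treated as separate samples, and nothing states which rats they came from. Relations used 100000 permutations. Fits were tested on simulated counts with a fixed dispersion and effects equal on all days. That setting cannot show how the fits handle effects that change with the day. The deposited FPKM served for levels between genes and as an alternative. Promoter letters came from a RefSeq table (GRCr8) and were not tied to the authors' build.

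Genes with at least 100 reads in a library are named, some with every library's value (chosen after values were seen) and the others by lowest, median and highest. The genes and lists were chosen with earlier results of these data known. Some items are not reported here.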

Additional observations from a re-analysis of the deposited data

Results flagged for a closer look

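Each value here is set apart because all 3 dressed libraries lay on one side of control on one day and all 3 on the other side on another day. It is the mean log2 ratio to control over the 3 dressings on the later day minus that on the earlier day. The difference was not tested, and the 3 ratios of a day share 1 control library. The values of day 14 for RT1-A3, RT1-CE16 and RT1-Db1 rest on the control library of that day, where these genes were at least 2-fold below all other libraries. The class I median moved by 2.12 from day 3 to day 7 and by 2.08 from day 3 to day 14. Class I genes in sum held 2589, 720 and 772 CPM in control on days 3, 7 and 14. In the same order they held 544, 1032 and 882 CPM in d-SMG, 1558, 849 and 1074 in s-GAG and 777, 699 and 1123 in Alg. Moves up or down below are thus moves of the ratio to control, and not always of the level in the dressed libraries.

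From day 3 to day 7, 18 of 40 named genes met this, against 14.4% of all genes that reach 100 reads in some library. Those that moved up were RT1-A1 by 1.90, RT1-A2 by 1.85, RT1-A3 by 2.23, RT1-CE1 by 2.61, RT1-CE10 by 5.40, RT1-CE11 by 2.65, RT1-CE13 by 3.10, RT1-CE14 by 1.56, RT1-CE15 by 4.52, RT1-CE3 by 1.34, RT1-CE4 by 1.84, RT1-Db1 by 2.31, RT1-M6-1 by 2.87, RT1-S3 by 3.16, RT1-T24-1 by 4.60, RT1-T24-3 by 4.51, Tap1 by 2.61 and Tapbp by 1.78.

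From day 3 to day 14, 10 of 40 named genes met this, against 18.1% of all genes that reach 100 reads in some library. Those that moved up were RT1-A1 by 2.45, RT1-A3 by 6.52, RT1-Ba by 1.55, RT1-CE13 by 2.98, RT1-CE14 by 2.56, RT1-CE15 by 4.09, RT1-CE16 by 7.75, RT1-CE3 by 2.77, RT1-Db1 by 4.42 and RT1-M6-1 by 3.84.

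From day 7 to day 14, 6 of 40 named genes met this, against 9.17% of all genes that reach 100 reads in some library. The gene that moved up was RT1-CE16 by 6.57. Those that moved down were RT1-A2 by -1.29, RT1-CE4 by -0.75, RT1-N2 by -4.44, RT1-S3 by -1.79 and Tapbp by -0.81.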

How the results depend on the processing

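The class I and class II medians kept their sign under RLE scaling, library size, no filter on low counts, a minimum of 50 reads and FPKM, except the class II median on day 14. In s-GAG it was -0.19 with library size, -0.02 with 50 reads and -0.15 with FPKM in place of 0.20, and in Alg 0.20 without a filter in place of -0.07. The class I median of Alg on day 3 was -1.32 with FPKM and a pseudocount of 1, in place of -1.61. Scaling by library size moved the median of all genes by -0.46 in d-SMG on day 3, -0.39 in s-GAG on day 14 and 0.29 in d-SMG on day 7, and by 0.15 to 0.19 in s-GAG and Alg on day 3 and d-SMG on day 14. Members of the set called over the libraries numbered 0 in each comparison under every alternative, with each library left out in turn and, chosen after seeing the data, without the control library of day 14, the d-SMG library of day 3 and the s-GAG library of day 14 together. Over all genes, DESeq2 called 9, 280, 89, 24, 8, 35 and 15 in place of 0, and fits on the compared groups alone called 12 for s-GAG and 9 for Alg against control. For s-GAG against control, leaving out the d-SMG library of day 3 called 66 genes, leaving out the Alg library of day 7 called 1, and using no filter called 1. Over the 12 fits that leave out 1 library, r ran from 0.268 to 0.770 for Cd74 and Ciita, 0.0973 to 0.694 for Cd74 and Ptprc, 0.277 to 0.817 for Tap1 and Nlrc5 and 0.436 to 0.662 for B2m and Ptprc, with the highest without the s-GAG library of day 14 each time, the only fits that passed the threshold.

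Counts of genes past 2-fold depended on the call rule. With edgeR's exact test and a set biological coefficient of variation of 0.4, 8 in place of 34 were lower in d-SMG on day 3 and 0 in place of 13 and 33 in s-GAG and Alg, while on day 14, 2, 5 and 3 were higher in place of 15, 14 and 11 (0.415%, 5.16% and 1.19% of all genes), RT1-A3 and RT1-CE16 among them in all 3, and no gene of the set was called on day 7. With a fold of at least 1.5, 25 in place of 13 were lower in s-GAG on day 3, and with FPKM 7. The fold of 1.5 gave 15 in place of 9 higher and 8 in place of 5 lower in s-GAG on day 7, 11 in place of 5 lower in Alg on day 7, and on day 14, 8 in place of 2 lower in d-SMG and 17 in place of 9 in Alg. FPKM gave 9 in place of 14 higher in s-GAG and 5 in place of 9 lower in Alg on day 14. Cd74 in Alg on day 7 passed 2-fold with library size (-1.03) and FPKM (-1.04), B2m in s-GAG on day 14 likewise (-1.25 and -1.21), and Cd74 in d-SMG on day 7 did not with RLE (0.97). The cause was not tested. The labels give no replicate number, so no pairing by replicate could be fitted. Treatments were compared within days through the day term, and without it 0 genes were called in each comparison, as with it.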

Other observations

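Of 7 markers of T and natural killer cells, Cd4 had 282 CPM in control, 148 in d-SMG, 175 in s-GAG and 154 in Alg on day 3, and rat macrophages also express this gene. Cd3e, a chain of the T cell receptor complex, had 0.765, 0.416, 3.40 and 0.987 CPM in the same order, so s-GAG was highest and d-SMG lowest. Cd3d had 1.06, 0.499, 4.76 and 2.17 CPM, in that order too, and was highest of the 12 libraries in d-SMG on day 14 (16.4 CPM). Cd3g, Nkg7 and Gzmb were also highest in s-GAG and lowest in d-SMG on day 3. Cd8a went the other way, with 9.44 CPM in control, 21.4 in d-SMG, 4.31 in s-GAG and 7.55 in Alg on day 3. The d-SMG value of Cd8a was the highest of the 12 libraries. The standard proteasome subunits Psmb5, Psmb6 and Psmb7 summed to 430.2 CPM in s-GAG on day 14 and to 142 to 357 CPM in the other 11 libraries. These are values of single libraries with no test.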
